A study of Mus musculus with 10 samples.

Results

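The 9 genes of the blood vessel lining, Kdr, Flt1, Cdh5, Pecam1, Tie1, Tek, Emcn, Vwf and Apold1, were followed in soleus and tibialis anterior (TA) muscle of the mouse. They were taken from a fixed list of 9 symbols, by summing the deposited read counts of every transcript of each gene, among 20009 genes with a count. Soleus, in the calf, is built mainly of slow fibres, and TA, along the shin, of fast ones. The 4 groups were soleus from wild-type males (3 libraries), soleus from wild-type females (2), TA from wild-type males (3) and TA from wild-type females (2), with no treatment, strain or age in the labels. The same replicate numbers, male 1 to 3 and female 1 to 2, occur in both muscles. The deposited files of 1 sex and number carry the same code in both muscles, and each number its own code, which was read here as 5 mice. The labels themselves do not call the replicates separate animals, so p-values speak of these samples only. They set a difference against the spread between the libraries, which the main fits take as independent.

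Endothelial cells form the inner wall of every blood vessel, and in skeletal muscle most of them lie in the capillaries that run along the fibres. Vascular endothelial growth factors (VEGFs) act on them through the receptor kinases encoded by Kdr (VEGFR2) and Flt1 (VEGFR1), and angiopoietins act through the Tek (Tie2) receptor and its partner Tie1. Cdh5 (VE-cadherin) and Pecam1 (CD31) hold neighbouring cells together, Emcn (endomucin) is a surface sialomucin, and Vwf (von Willebrand factor) is the clotting protein that endothelial cells store. Apold1 encodes an endothelial early-response protein. In whole muscle, fewer endothelial cells and less RNA per endothelial cell cannot be told apart.

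Libraries held 726414 to 961844 counts, of which 22.1% to 28.4% in soleus and 17.2% to 20.9% in TA fell on Gm20594. Counts outside Gm20594 and Cep295 ran from 513984 to 632144 in soleus and from 611106 to 696675 in TA. Soleus female 2 stood apart, with 15070 genes detected against 10971 to 11858 in the other 9 libraries. The muscle labels were matched by the myosin genes: Myh7, the slow myosin, averaged 2390 counts scaled to library size (CPM) in soleus and 0.462 in TA, and Myh4, the fastest myosin, 0.234 and 1460.

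The sequences shown first are those of the VEGF receptors, the members of one family that were both higher in TA. Flt1 was counted on 2 coding transcripts, and they differ in what follows their shared exons. In Flt1-202 (30 exons, 1333 codons) splicing leads on to the exons of the membrane anchor and kinase. Flt1-203 (13 exons, 688 codons) reads on into the intron and stops there. It is the soluble receptor, which binds VEGF outside the cell and carries no kinase. Lower case marks the last 30 shared bases and capitals the first 60 that differ, read from GRCm38 on the minus strand. The capitals lie at chr5:147634464-147634523 in Flt1-202 and at chr5:147639165-147639224 in Flt1-203, both in coding sequence.
Flt1-202: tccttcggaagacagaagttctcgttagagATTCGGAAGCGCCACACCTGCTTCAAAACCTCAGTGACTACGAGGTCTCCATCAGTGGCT
Flt1-203: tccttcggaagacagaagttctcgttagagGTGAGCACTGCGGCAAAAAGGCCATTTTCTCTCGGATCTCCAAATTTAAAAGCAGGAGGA

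The RefSeq promoter table (GRCm38.p6) matched 6 of the 9 members. Cdh5, Pecam1 and Vwf had no entry. Kdr and Flt1 are printed as the 250 bases before the start site, both on the minus strand, at chr5:75978456-75978705 and chr5:147726012-147726261. Capitals mark GGAAG or its reverse complement CTTCC, and TGACGTCA, the cyclic AMP response element. GGAAG is a narrow form of GGAA, the core read by ETS factors, a family that endothelial genes depend on. GGAA before other bases also occurs in these windows and was not marked. None of the marked matches overlap.
Kdr: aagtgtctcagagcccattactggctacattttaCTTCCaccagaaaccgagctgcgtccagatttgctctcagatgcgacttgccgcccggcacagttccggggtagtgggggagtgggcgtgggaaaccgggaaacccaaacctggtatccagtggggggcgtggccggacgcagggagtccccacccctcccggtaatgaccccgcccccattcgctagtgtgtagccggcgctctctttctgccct
Flt1: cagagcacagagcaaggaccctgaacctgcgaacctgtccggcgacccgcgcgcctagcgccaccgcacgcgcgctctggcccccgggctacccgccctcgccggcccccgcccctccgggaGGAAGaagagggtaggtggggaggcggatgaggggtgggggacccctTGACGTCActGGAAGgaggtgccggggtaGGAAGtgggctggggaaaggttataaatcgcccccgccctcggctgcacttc
The Kdr window held 1 GGAAG match, and the Flt1 window 3 and 1 cyclic AMP response element. Of 32817 promoter windows of this length, 64.1% held a GGAAG match on either strand and 1.55% the cyclic AMP response element. A GGAAG match by itself is therefore common. A match describes letters and not a bound site.

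Kdr, Flt1, Cdh5 and Apold1 were higher in TA than in soleus, and none of the 9 genes was called higher in soleus. Vwf lay the other way without passing the test, and Pecam1, Tie1, Tek and Emcn had too few counts to be tested. A gene was called at a Benjamini-Hochberg adjusted p under 0.05 in edgeR's quasi-likelihood test, with sex as a covariate, over 5115 genes. Of the 5 members that passed the filter on low counts, 4 were called higher in TA. Over all genes tested, 11.0% were called higher in TA and 11.0% higher in soleus. The median log2 fold change of soleus over TA was -1.20 over these 5 members and 0.01 over all genes tested. Low genes can pass the filter through the muscle where they are high, so the share and the median describe the 5 members and not all 9.

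**Figure D1:**
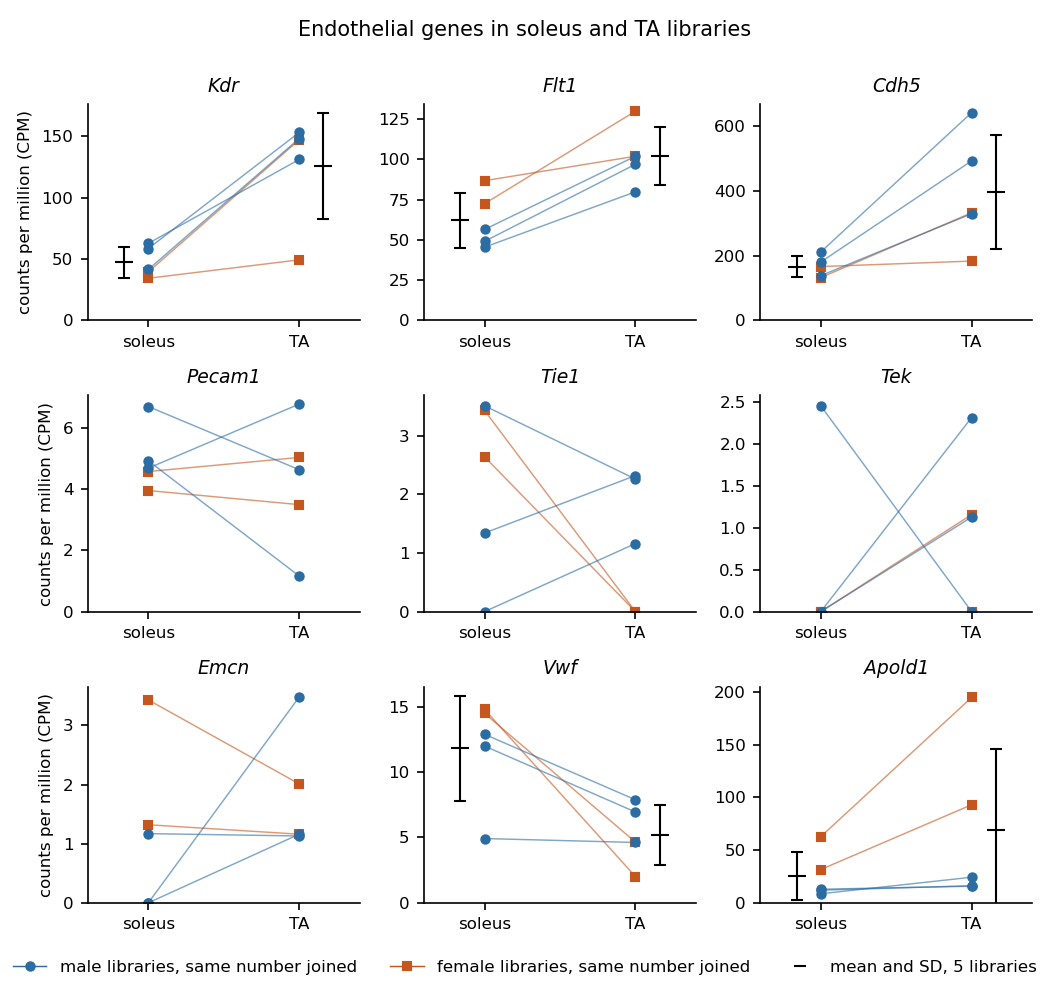
Level of each gene in every library, in CPM on a linear axis from 0 with a scale of its own per panel, with lines joining the soleus and TA libraries of one sex and number. Black marks give mean and SD for the 5 tested genes, with bars cut at 0. Kdr, Flt1, Cdh5 and Apold1 slope up to TA in 5 of 5 pairs, and Vwf slopes down in 5 of 5.

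Kdr, the main signalling receptor for VEGF, stands at chr5:75932827-75978458 on the minus strand of GRCm38. Its level was 58.5, 41.5 and 62.7 CPM in the male soleus libraries and 39.5 and 34.3 CPM in the female ones. In TA it was 153, 148 and 131 CPM in males and 147 and 49.3 CPM in females. TA female 2 lay within the soleus range, and the other 4 TA libraries above every soleus library. Soleus averaged 47.3 ± 12.5 CPM and TA 126 ± 43.5 CPM (SD, n = 5 each), a log2 fold change of -1.40 (SE 0.25, adjusted p = 0.0017). With both female 2 libraries left out, a choice made after seeing the data, it was -1.52.

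Flt1, which binds VEGF tightly and signals weakly, stands at chr5:147561604-147726011 on the minus strand. In soleus its levels were 49.1, 45.5 and 56.5 CPM in males and 72.5 and 86.8 CPM in females. In TA they were 97.0, 79.9 and 102 CPM in males and 130 and 102 CPM in females. The muscles overlapped only in that soleus female 2 exceeded TA male 2. Its log2 fold change was -0.74 (SE 0.15, adjusted p = 0.00449), with means of 62.1 ± 17.3 and 102 ± 18.1 CPM (SD, n = 5 each).

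The soluble and the full-length Flt1 transcripts were both higher in TA. Flt1-203, the soluble form, had 11, 13 and 15 counts in male soleus and 17 and 23 in female soleus, against 30, 30 and 29 in male TA and 49 and 35 in female TA. Every TA library exceeded every soleus library. Its log2 fold change was -0.97 (SE 0.21, adjusted p = 0.00446, edgeR over 5089 transcripts). Flt1-202 had 30, 21 and 31 counts in male soleus and 38 and 53 in female soleus, against 56, 39 and 59 in male TA and 63 and 66 in female TA. These ranges overlapped, and the log2 fold change was -0.58 (SE 0.18, adjusted p = 0.0371). That call was lost when any 1 of 7 libraries was left out, with adjusted p up to 0.0946. It was also lost in DESeq2's Wald test (adjusted p = 0.078) and with no filter on low counts (0.136).

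Flt1-203 made up 31.8% ± 4.18 of the counts of both transcripts in soleus, and 37.9% ± 5.23 in the TA libraries (SD, n = 5 each). The difference of -6.17 percentage points did not pass an exact 2-sided permutation test over 252 splits (p = 0.0873). TA was higher in 5 of 5 same-numbered pairs, and permuting within pairs, as a replicate block, gave an exact p of 0.0625, the smallest that 5 pairs allow. Without soleus male 2 it was -7.79 points with an exact permutation p of 0.0159, so this answer turns on 1 library. Single shares were loosely set at this depth: soleus male 1, with 41 counts, had 26.8% with a 95% Wilson interval of 15.7% to 41.9%. The share was examined after the transcript counts had been seen.

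**Figure D2:**
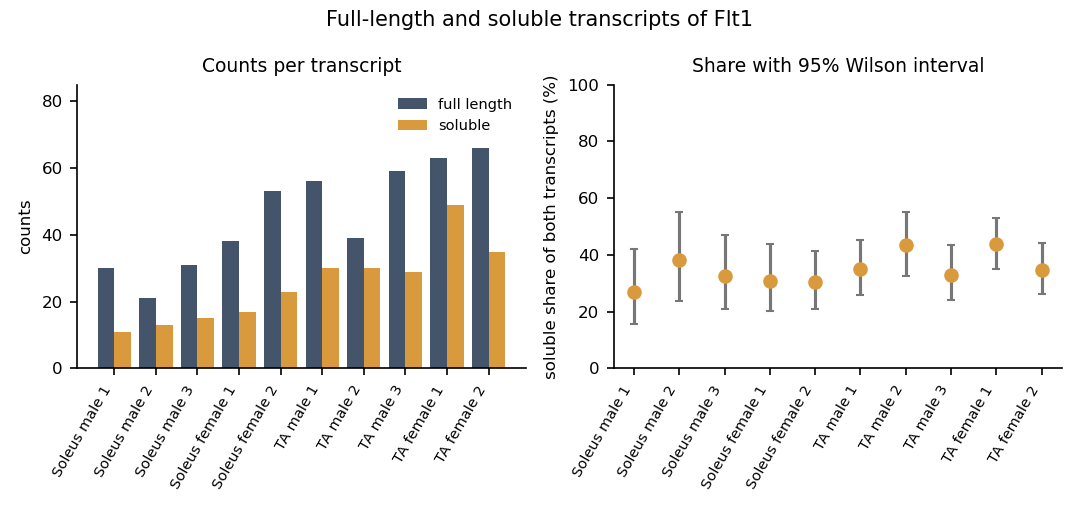
Left, counts of the full-length (Flt1-202) and soluble (Flt1-203) transcripts in each library; right, the soluble share of both in percent with 95% Wilson intervals, which cover counting error only. All 5 TA libraries hold at least 29 counts of Flt1-203 and all 5 soleus libraries at most 23, while the shares overlap between muscles.

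Cdh5, the cadherin of the endothelial adherens junction, stands at chr8:104101625-104144511 on the plus strand and had the most counts of the 9 genes, 2410. Soleus held 180, 211 and 138 CPM in males and 132 and 166 CPM in females. TA held 492, 641 and 329 CPM in males and 332 and 183 CPM in females. TA female 2 was again the low TA library, below soleus male 2, and the other 4 TA libraries lay above all of soleus. The means were 165 ± 32.5 and 395 ± 175 CPM (SD, n = 5 each), with a log2 fold change of -1.20 (SE 0.24, adjusted p = 0.00338). With both female 2 libraries left out it was -1.44.

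Pecam1, at chr11:106654217-106750628 on the minus strand, is as general an endothelial marker as Cdh5 but held 39 counts in all. Its levels were 3.95 to 6.69 CPM in soleus and 1.16 to 6.77 CPM in TA. The 20 soleus and 19 TA counts gave a soleus over TA ratio of 1.16 with a 95% exact counting interval of 0.588 to 2.30. No difference was detectable at this depth. The ratio of Cdh5 counts, 0.424, lies outside that interval. The interval covers counting error only and not the spread between libraries, so it does not exclude a difference of that size. Of its 39 counts, 51.3% lay on Pecam1-208, a transcript of the retained-intron class.

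Tie1, Tek and Emcn were near the limit of detection. Tie1 held 9 counts in soleus and 5 in TA (ratio 1.99, interval 0.598 to 7.54) and was at 0 in 3 of 10 libraries. Tek held 2 and 4 (ratio 0.552, interval 0.0499 to 3.85) and was at 0 in 6 libraries. Emcn held 5 and 8 (ratio 0.690, interval 0.177 to 2.39) and was at 0 in 2. A count of 0 allows up to 3 counts, which is 3.51 CPM in soleus male 1. The intervals of Tek and Emcn take in both no difference and the ratio of Kdr counts, 0.384. That of Tie1 takes in no difference and lies above the Kdr ratio. Of the 9 soleus counts of Tie1, 5 lay on Tie1-202, which is not a coding transcript. These intervals cover counting error only and not the spread between libraries, so they do not exclude a difference of the Kdr size. No difference between the muscles was detectable for these 3 genes at this depth.

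Vwf, at chr6:125546774-125686679 on the plus strand, was the single tested member that leaned to soleus. Soleus held 12.9, 12.0 and 4.92 CPM in males and 14.5 and 14.8 CPM in females. TA held 7.89, 6.95 and 4.62 CPM in males and 4.65 and 2.01 CPM in females. Soleus male 3 lay within the TA range and the other 4 soleus libraries above it. The log2 fold change was 1.17 (SE 0.43, adjusted p = 0.0688), which did not pass. Without soleus male 3 it was 1.41 with an adjusted p of 0.0277. Its counts were few, 48 in soleus and 23 in TA. Of these, 19 and 5 lay on Vwf-207, a retained-intron transcript, and 10 of the 19 came from soleus female 2. The coding transcript Vwf-203 held 26 and 17. Platelets and their precursors also make Vwf. Of 5 platelet markers none passed the filter, Gp1bb was at 0 in every library, and their sum was 0 to 10.7 CPM in soleus and 2.26 to 9.05 CPM in TA. Their part in the Vwf values was not tested.

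Apold1, at chr6:134981718-134986836 on the plus strand, differed between the muscles and more widely between the sexes. In soleus it was 12.9, 12.0 and 8.60 CPM in males and 31.6 and 62.8 CPM in females. In TA it was 15.8, 16.2 and 24.3 CPM in males and 93.1 and 195 CPM in females. Within each sex every TA library exceeded every soleus library. The log2 fold change of soleus over TA was -1.23 (SE 0.31, adjusted p = 0.0131). The call was lost without TA female 2 (-0.84, adjusted p = 0.0509) and in a fit without the sex covariate (-1.42, adjusted p = 0.226).

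Across both muscles Apold1 was 8.60 to 24.3 CPM in the 6 male libraries and 31.6 to 195 CPM in the 4 female ones, with no overlap. The log2 fold change of female over male was 2.58 (SE 0.30, adjusted p = 0.0011, edgeR). That fit took both muscles of a mouse as independent libraries. Its p-value, and those of all sex calls below over both muscles, can therefore be too small. Within 1 muscle, where each mouse gave 1 library, the log2 fold change was 2.08 in soleus (adjusted p = 0.0596) and 2.94 in TA (adjusted p = 0.0121). Apold1 was the 1 member of 5 called higher in females, where 2.78% of all tested genes were. None of the 5 was called higher in males, where 1.29% of all were. With no filter on low counts, Cdh5 was called higher in males (-0.65, adjusted p = 0.0455). With both female 2 libraries left out the Apold1 value was 1.99 (adjusted p = 0.00246).

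Other early-response genes were high in 3 of the 4 female libraries. Of 9 tested genes of the immediate early list, 8 were called higher in females, where 2.78% of all tested genes were. The median log2 fold change of the 9 was 2.90, against 0.02 over all genes. Leaving out a single library ended the calls of Jun (any 1 of 8 libraries), Ier2 (any 1 of 7) and Egr1 (1 library). With both female 2 libraries left out 3 of these 8 calls held, those of Fos, Junb and Btg2. Btg2, an antiproliferative early gene, was 186 to 516 CPM in females and 31.2 to 87.0 CPM in males. Thbd, the thrombin receptor of endothelium, was 35.6 to 151 CPM in females and 14.7 to 32.4 CPM in males (1.66, SE 0.31, adjusted p = 0.0129, an estimate that did not pass without both female 2 libraries, 1.12, adjusted p = 0.0717). Klf4, a flow-responsive endothelial factor, was called higher in females (1.14, SE 0.29, adjusted p = 0.0447), a call lost when any 1 of 9 libraries was left out. Of 9 tested capillary genes 2 were called higher in males, where 1.29% of all tested genes were. They were Aplnr (-4.13, SE 0.83, adjusted p = 0.0161) and Cavin2 (-0.93, SE 0.23, adjusted p = 0.0447). Aplnr was 0 to 2.33 CPM in females and 2.46 to 52.1 CPM in males. How these 2 calls depend on single libraries was not examined. For all 8 called early genes TA female 1, TA female 2 and soleus female 2 lay above every male library. Soleus female 1 did so for 2, Atf3 and Btg2, and not for the other 6, Fos, Jun, Junb, Egr1, Ier2 and Klf6. Fos, for example, was 350, 679 and 1270 CPM in the first 3 libraries and 5.27 CPM in soleus female 1, within the male range of 3.38 to 12.0. Klf4 was 44.8 CPM in soleus female 1, below every male library (48.7 to 60.9). Apold1 and Thbd in soleus female 1 were above every male library. All 6 erythroid markers were called lower in female libraries, with a median of -3.16. The part of early-gene activity, or of blood in the sample, in the Apold1 difference was not tested. Sex here also cannot be told apart from anything else that set the female libraries apart from the male ones.

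**Figure D3:**
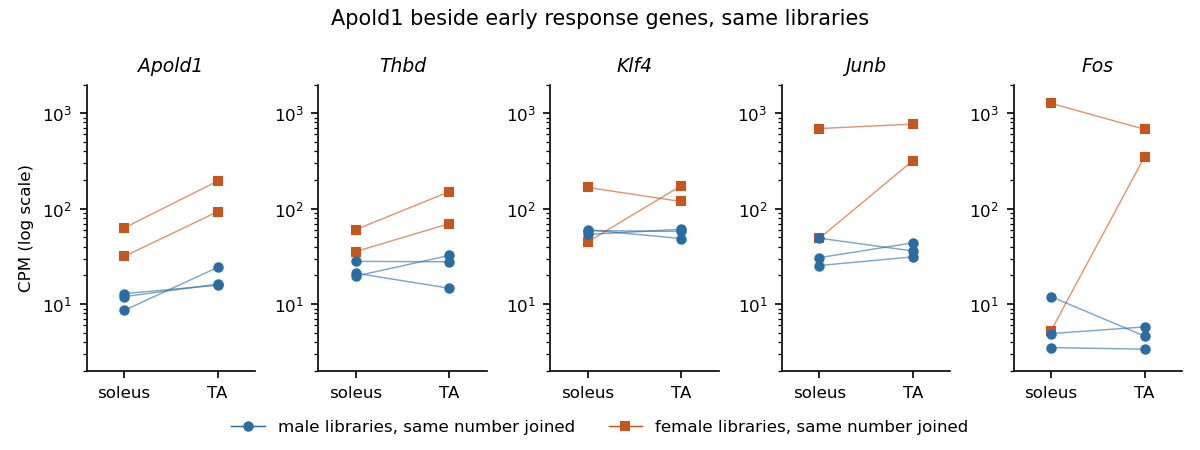
Levels in CPM on a log axis of Apold1, Thbd, Klf4, Junb and Fos in the same 10 libraries, with lines joining libraries of one sex and number. All 4 female libraries lie above the male ones for Apold1 and Thbd, while soleus female 1 lies among the males for Fos (5.27 CPM) and Junb (48.8 CPM) and below them for Klf4 (44.8 CPM).

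The muscle difference of no member was shown to depend on sex. Kdr differed by -1.40 in males (adjusted p = 0.0161) and by -1.40 in females (0.0692). Cdh5 differed by -1.47 (0.00623) and -0.79 (0.211), and Flt1 by -0.88 (0.0116) and -0.54 (0.184). Apold1 differed by -0.74 (0.32) and -1.60 (0.0315), and Vwf by 0.60 (0.482) and 2.12 (0.0659). The interaction, female minus male, ranged from -0.86 for Apold1 to 1.52 for Vwf (SE 0.60 and 0.81), and edgeR called none of these 5. Of all tested genes 0.0% were called, 351 had an unadjusted p under 0.05, and DESeq2 called 3.

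The 9 genes differed widely in how much sequence their transcripts share with others. The 4 genes whose main coding transcripts had most sequence of their own held the most counts. Own sequence is given as the percentage of 31-base words found in no other annotated transcript. It was 99.3% for Apold1-201, 97.2% for Cdh5-201, 65.9% for Flt1-202, 64.2% for Flt1-203 and 62.0% for Kdr-201. Each of these 4 genes held at least 429 counts. In the transcripts with most counts of 3 other genes it was 45.7% (Emcn-202), 10.1% (Vwf-203) and 7.54% (Tie1-201). In the coding transcripts of Pecam1 that held most of its coding counts it was 16.7% and 0.891%. These genes held 13 to 71 counts, and Tek 6. Retained-intron transcripts did not follow this order. Pecam1-208 had 83.0% own sequence and 20 counts, and Vwf-207 had 79.1% and 24 counts. Whether the authors' counting of shared sequence set the low totals was not tested, and levels of different members are not on one scale. No exon of a member overlapped another annotated gene. Tested by transcript, Kdr-201 (-1.41), Cdh5-201 (-1.18), Apold1-201 (-1.19) and both Flt1 transcripts were called higher in TA, where 11.7% of all tested transcripts were.

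**Figure D4:**
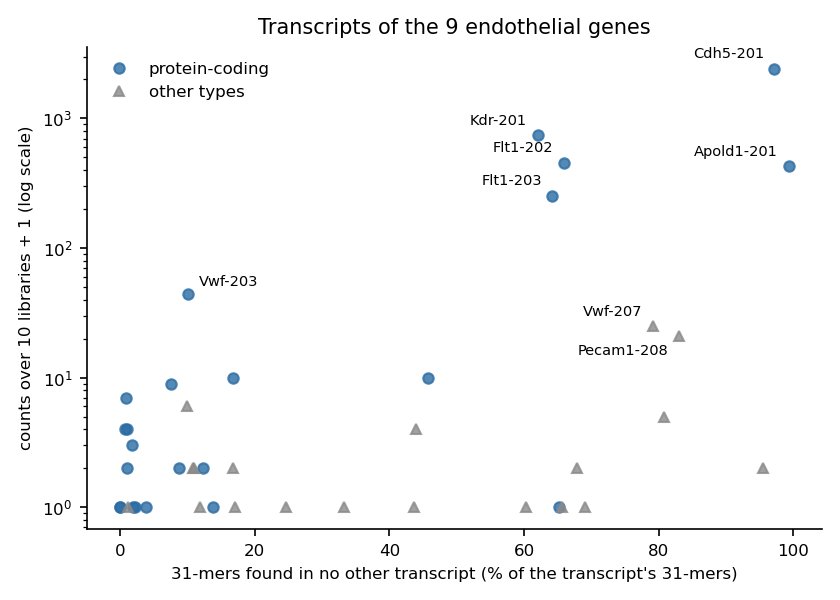
Each point is a transcript of the 9 genes: the share of its 31-base words found in no other transcript (x axis, percent) against its counts over 10 libraries plus 1 (log axis), circles for coding transcripts and triangles for other types. The coding transcripts of Cdh5, Kdr, Flt1 and Apold1 stand at the upper right, and Vwf-203, with 10.1% own sequence, has 43 counts.

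Among the ligands and other receptors of the VEGF pathway, 1 of 5 tested genes was higher in soleus and 1 higher in TA, with a median of -0.15. Over all tested genes 11.0% were called in each direction. Vegfd, a ligand best known for lymphatic growth, was 13.5 to 19.8 CPM in soleus and 4.51 to 8.05 CPM in TA, with no overlap (1.5, SE 0.29, adjusted p = 0.0028). Nrp1, the co-receptor that joins Kdr, was 18.3 to 58.9 CPM in soleus and 52.3 to 116 CPM in TA (-0.99, SE 0.27, adjusted p = 0.0207). The lymphatic receptor Flt4 (-0.40, adjusted p = 0.425), the co-receptor Nrp2 (0.27, 0.665) and the ligand Vegfb (-0.15, 0.697) did not pass. Vegfa, the main ligand of Kdr and Flt1, held 2 counts in all, Vegfc 18 and Pgf 3, and none was tested. How much sequence the transcripts of these 3 genes share with others was not measured. Their low counts do not show that the genes were absent.

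Of 5 partners of Tek and Tie1, 4 were tested, while Tek itself was not, and Angpt4, another ligand of Tek, held 1 count. Angpt1, its activating ligand, was 97.1 to 170 CPM in soleus and 34.8 to 56.6 CPM in TA (1.47, SE 0.21, adjusted p = 0.000249). Ptprb (VE-PTP), the phosphatase that acts on Tek, Kdr and Cdh5, was 35.4 to 49.5 CPM in soleus and 75.4 to 101 CPM in TA (-0.97, SE 0.15, adjusted p = 0.000514). Neither gene overlapped between muscles, so the ligand was higher in soleus and the endothelial phosphatase higher in TA. Angpt2, which competes with Angpt1 in resting vessels, was 1.32 to 20.6 CPM in soleus and 15.1 to 29.1 CPM in TA (-1.16, SE 0.49, adjusted p = 0.11). It passed without soleus female 2 (-1.76, adjusted p = 0.0124). Svep1, a matrix protein that binds Tie1, was higher in TA (-0.83, SE 0.23, adjusted p = 0.0237), a call lost when any 1 of 6 libraries was left out. Over the 4 tested genes of this list the median was -0.90.

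**Figure D5:**
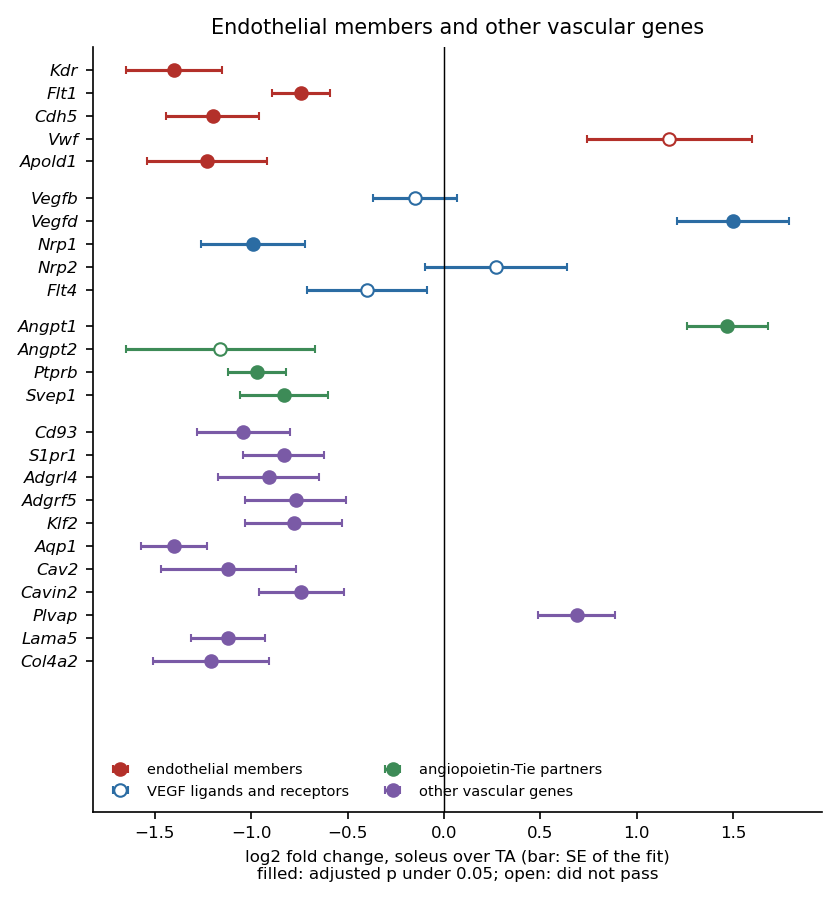
Log2 fold change of soleus over TA with the SE of the fit for the 5 tested members, their VEGF and angiopoietin partners, and other vascular genes called at an adjusted p under 0.05 (filled points; open points did not pass). Values left of 0 are higher in TA; Vegfd, Angpt1 and Plvap are the filled points to the right.

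Other endothelial genes mostly had negative fold changes, that is higher levels in TA, and a minority of them passed. Over all tested genes 49.6% had a negative fold change and 11.0% were called higher in TA. The sign was negative in 9 of 11 surface genes, 9 of 9 transcription factors, 6 of 9 capillary genes and 6 of 6 basement membrane genes. Other vascular lists were more even, with 5 of 7 arterial and Notch genes, 3 of 5 VEGF genes and 3 of 4 angiopoietin partners negative. Among venous and lymphatic genes 2 of 4 were negative, and among tone and clotting genes 2 of 4. Of 11 tested surface genes 4 were called, all higher in TA (median -0.77): Cd93 (-1.04), S1pr1 (-0.83), Adgrl4 (-0.91) and Adgrf5 (-0.77), all receptors of the endothelial surface. Of 9 endothelial transcription factors 1 was higher in TA, a share near that over all genes. It was Klf2 (-0.78), the factor induced by blood flow, and the median was -0.51. Erg, an ETS factor of endothelium, held 1 count and was not tested. Of 9 capillary genes 3 were higher in TA (median -0.45), namely the water channel Aqp1 (-1.40) and the caveolar genes Cav2 (-1.12) and Cavin2 (-0.74). Aqp1 averaged 154 CPM in soleus and 407 CPM in TA with no overlap. Of 6 basement membrane genes Lama5 (-1.12) and Col4a2 (-1.21) were higher in TA, with a median of -0.58.

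In the opposite direction, Plvap, the protein of endothelial diaphragms, was 58.0 to 89.7 CPM in soleus and 30.1 to 55.3 CPM in TA (0.69, SE 0.20, adjusted p = 0.0279). In edgeR it differed by 1.08 in males (adjusted p = 0.00418) and by 0.12 in females (0.822). The interaction, -0.96, was not called (adjusted p = 0.654). Plvap was the 1 called gene of 4 tested on the venous and lymphatic list, whose median was 0.32. None of 7 arterial and Notch genes (median -0.71) and none of 4 tone and clotting genes (median 0.06) was called. Of 5 oxygen-responsive regulators Egln3, a prolyl hydroxylase that marks HIF proteins for breakdown, was higher in soleus (1.5, median of the list 0.13). Of the immediate early genes 1 of 9 was called, Nr4a1, higher in TA (-2.30, SE 0.64, median of the list -0.46). That share is near the 11.0% over all genes. Nr4a1 held 9 counts in soleus, where 3 libraries were at 0, and 45 in TA. Leaving out any 1 of several libraries ended the calls of Adgrf5 (8 libraries), Klf2 (8), Cav2 (6), Cavin2 (5), Plvap (5) and Adgrl4 (4), and leaving out TA female 1 that of Nr4a1.

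Markers of some other cell types also differed between the muscles. The 9 members summed to 278 to 376 CPM in soleus and 538 to 905 CPM in TA. Cdh5 was the largest part on average, with means of 165 and 395 CPM. Levels of different genes are not on one scale, so a sum mainly follows the genes with most counts. The low of 538 CPM was TA female 2, where Apold1 gave 195 CPM. The 9 mural markers, of the pericytes and smooth muscle around vessels, summed to 420 to 662 and 611 to 1200 CPM. Of 4 tested mural markers Notch3 (-1.12) and Rgs5 (-0.74) were higher in TA, with a median of -0.44. Leukocyte markers summed to 227 to 909 CPM in soleus and 527 to 666 in TA, with none of 3 called (median -0.07). Erythroid markers summed to 261 to 36800 and 1570 to 21800 CPM, with none of 6 called (median -0.09). Fibro-adipogenic markers had 1 of 5 called each way (-0.08), and the 1 tested nerve marker was not called (-0.37). Adipocyte markers summed to 21.1 to 32.1 CPM in soleus and 2.26 to 6.98 in TA, and the 1 tested was higher in soleus (2.09). Tendon markers had 2 of 5 called, both in soleus (1.92), and muscle fibre markers 2 of 8 in soleus and 3 in TA (-0.03). Over all tested genes 11.0% were called higher in TA and 11.0% higher in soleus, and lists this short give only rough shares. The part of other cell types in the members' values was not tested.

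The members with most counts were also compared with all other genes by the shape of their profile over the 10 libraries, as the root mean square distance of log2 CPM after subtracting each gene's mean, over 4416 genes of at least 10 CPM. Nearest to Cdh5 were Cd93 (0.25), Itga1 (0.26), Col4a2 (0.29), Usp38 (0.30) and Rgs5 (0.31), where the median gene stood at 0.84. Cd93 is another endothelial surface receptor, Rgs5 a pericyte gene and Col4a2 a basement membrane chain. Nearest to Kdr were Bhlhe41 (0.30), Pgam2 (0.30), Calm3 (0.32), Pkm (0.33) and Tmem37 (0.33), with a median of 0.90. Pgam2 and Pkm encode enzymes of glycolysis and are abundant in fast fibres. Cdh5 ranked 12 by closeness to Kdr, and Kdr ranked 21 by closeness to Cdh5. Nearest to Flt1 were Sppl2a (0.17), Dennd1a (0.18), Ahctf1 (0.21), Timp3 (0.21) and Rpl5 (0.21), with a median of 0.62, and Kdr and Cdh5 ranked 2719 and 2619. These distances describe the 10 libraries, which share depth and muscle.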

How the data were processed

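The authors deposited read counts per Ensembl transcript, whole numbers of at least 1, for 10 libraries. Per the labels' protocols, 10 ng of total RNA from fibrous-tissue extraction entered a Tag-Seq preparation with a Takara SMART-Seq Stranded protocol. Tools named in the submitters' processing notes are bcl2fastq, Trimmomatic 0.32 and FastQC, with the build GRCm38.p4. The aligner and counter are not given in the sources used here. Transcripts were matched without version to GENCODE M21 (40359 of 40414) and summed to genes.

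Tests used edgeR 4.0.16 (R 4.3.3) on genes kept by filterByExpr over the 4 groups, with TMM scaling, on which CPM rests, and sex as a covariate. A mean per group gave the interaction and the values within a sex or muscle. The fit between sexes held no term for the mouse. The steps were tested on simulated data. DESeq2 1.42.0, other scalings and filters, and leaving out each library were alternatives. Floors and intervals cover counting error only. The 9 members, 11 gene lists and 9 marker lists were chosen with earlier results of these data known. Named genes were the members, list genes with at least 100 counts (VEGF, angiopoietin), up to 4 per list by smallest p where called, and the 5 nearest profiles. Notch3 and Rgs5 were named after their values were seen. Thbd, Klf4, Aplnr and the early genes named for the difference between the sexes were also named outside this rule.

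Replicate numbers were read as pairs within each sex. After group means were removed, same-numbered soleus and TA libraries correlated with r of 0.229, 0.183 and 0.239 in males and 0.285 in females, above the 0.1 needed to allow a paired fit.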

Additional observations from a re-analysis of the deposited data

Results flagged for a closer look

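In 20 sets of 5 libraries, made of the level of each of the 9 genes and the soluble share of Flt1 in each muscle, 3 held a library far from the other 4. For normally spread values of 1 population, chance does so in about 1 set in 20. These sets mix the sexes and include counts near 0, so that rate need not hold here. Kdr was 49.3 CPM in TA female 2, where the other TA libraries held 131 to 153 CPM. Vwf was 4.92 CPM in soleus male 3, where the other soleus libraries held 12.0 to 14.8 CPM. Tek was 2.46 CPM in soleus male 3 and 0 in the other 4 soleus libraries, a value that rests on 2 counts.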

How the results depend on the processing

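The calls of Kdr, Cdh5, Flt1 and Flt1-203 between the muscles held under every alternative run, with log2 fold changes of -1.59 to -1.14, -1.37 to -1.03 and -0.82 to -0.68 for the first 3 genes when single libraries were left out. Apold1 lost its muscle call without TA female 2 and with no sex covariate, which left 3 members higher in TA where 4 were called otherwise. Without soleus male 3, 1 member, Vwf, was called higher in soleus. Genes called between muscles numbered 1126, and 893 to 1209 with single libraries left out. The fit with the replicate number as a block called 1207, of which 1069 were shared, and changed no call of a member.

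Genes called between sexes numbered 208, but 597 with no filter on low counts, 84 with both female 2 libraries left out, and 97 to 414 with single libraries left out. Members called higher in males went from 0 to 1 with no filter. Genes called for the interaction went from 0 to 3 in DESeq2, to 58 with no filter and to 0 to 102 with single libraries left out (102 without soleus female 1). The sign turned, always without a call, for Nrp2 with both female 2 libraries left out (-0.05) and for Vegfb with single libraries left out (-0.29 to 0.00). For Vwf between sexes it turned with single libraries left out (-0.25 to 0.26) and with both female 2 libraries left out (0.16). For the Kdr interaction it turned with single libraries left out (-0.58 to 0.99) and with no filter (-0.05). With no filter the median of all genes was 0.25 and 43.8% of calls were higher in TA, against 50.2%. The causes were not tested. Pecam1, Tie1, Tek and Emcn did not pass the filter on low counts.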
